A study of Saccharomyces cerevisiae with 12 samples.

Results

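Transcripts of 10 genes that protect budding yeast from superoxide and peroxide were followed in zinc-deficient cells of 3 strains. The 10 genes, SOD1, CCS1, SOD2, CTT1, CTA1, TSA2, AHP1, TRX2, TRR1 and YAP1, were chosen by their identifiers from the 6660 features of the deposited count table, and all 10 were found and passed the filter on low counts. The choice was made with earlier results of these data known. All strains were diploids of the BY4743 laboratory background. They were the wild type (WT), one carrying an ATG1 deletion (atg1), which lacks the protein kinase that starts autophagy, and one carrying an ATG41 deletion (atg41, named icy2 in the table's columns), which lacks a protein needed for full autophagy. Every culture, that of WT too, started in ample zinc and then spent 8 h at 30 °C in a medium that limits zinc, after 3 washes, so no zinc-replete group enters a comparison here. Each strain had 4 poly-A RNA libraries, and nothing in the labels says that these came from separate cultures or clones, so a p-value measures the spread between these libraries, which may be technical.

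Superoxide dismutases turn superoxide into hydrogen peroxide and oxygen. Catalases and peroxiredoxins then remove the peroxide, and peroxiredoxins are returned to their working form by thioredoxin, which thioredoxin reductase recharges with electrons from NADPH. Sod1, the cytosolic dismutase, holds a copper and a zinc ion at its active site, and zinc-deficient yeast is known to be under oxidative stress. Yap1 is the transcription factor that responds to peroxide and switches on many of these genes.

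The upstream sequences of the genes are shown first, because the Yap1 motif is what most of them share apart from function. In the 500 bases before the coding start, read from RefSeq assembly R64, the Yap1 motif TTACTAA, which reads as TTAGTAA on the other strand, occurred in 7 of the 10 genes, SOD1, CCS1, SOD2, CTA1, TSA2, AHP1 and TRX2. It occurred in 11.8% of the 6000 such windows of protein-coding genes. A second form, TGACTAA, which reads as TTAGTCA on the other strand, occurred in TSA2 and TRR1 and in 5.97% of all windows. Neither form was found in the windows of CTT1 and YAP1. Several of the 10 are known Yap1 targets, so the count is a description of how the set was put together. The stress motif AGGGG, which reads as CCCCT on the other strand and is bound by Msn2 and Msn4, was in 7 of the 10 and in 34.1% of all windows, with 3 copies each in CTT1 and AHP1. No motif found in these windows overlapped another. Chosen stretches follow, which hold some of these motifs and not all, 5′ to 3′ on the strand of the gene, with Yap1 motifs of either form, AGGGG motifs and, in SOD2, the Cbf1 motif CACGTG in capitals. They lie between 136 and 498 bases before the coding start and overlap no annotated gene. In R64 they are chrX:623150-623219 for SOD1, chrXIII:348407-348446 for CCS1, chrVIII:123843-123894 for SOD2, chrVII:654245-654284 for CTT1 and chrIV:969935-969974 for CTA1. The others are chrIV:1365920-1365985 for TSA2, chrXII:368283-368332 for AHP1, chrVII:913396-913449 for TRX2 and chrIV:1183090-1183129 for TRR1. Outside them lie, among others, the TTAGTAA of TSA2, the CCCCT of SOD2 and TRX2 and further copies in CTT1 and AHP1, and none is shown for YAP1. CTT1, AHP1 and TRR1 lie on the plus strand and the other 6 on the minus strand.
SOD1: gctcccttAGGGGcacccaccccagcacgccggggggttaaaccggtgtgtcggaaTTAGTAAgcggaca
CCS1: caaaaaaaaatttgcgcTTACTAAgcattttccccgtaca
SOD2: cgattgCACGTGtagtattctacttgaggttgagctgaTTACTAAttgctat
CTT1: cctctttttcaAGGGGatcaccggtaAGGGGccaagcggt
CTA1: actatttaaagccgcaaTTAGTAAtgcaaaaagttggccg
TSA2: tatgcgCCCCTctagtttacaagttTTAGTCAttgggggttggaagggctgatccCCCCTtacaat
AHP1: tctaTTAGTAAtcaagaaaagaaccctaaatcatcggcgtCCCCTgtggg
TRX2: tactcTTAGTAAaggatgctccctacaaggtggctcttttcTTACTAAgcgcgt
TRR1: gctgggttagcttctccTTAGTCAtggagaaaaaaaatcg
For the zinc-responsive element of the activator Zap1, only a strict form that reads the same on both strands was searched in the same windows. That form was in none of the 10 and in 0.150% of all windows. Sites that depart from it were not searched, so whether the 10 windows lack zinc-responsive elements was not tested. CACGTG was in SOD2 alone among the 10 and in 6.23% of all windows, and the Mac1 motif TTTGCTC, which reads as GAGCAAA on the other strand, was in CCS1 and TSA2 and in 8.62% of all windows.

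The depth ran from 9623157 to 11247182 expected counts a library, and the tests covered 6195 genes. The deleted genes matched the labels, with ATG1 at 0 counts in each atg1 library (at least 367-fold below WT, taking 3 counts a library as the floor) and ATG41 at 1 count in the 4 atg41 libraries together against 31001 in WT (ratio 29681, 95% counting interval 5327 to 1172388, counting error only). The library of atg1 replicate 1 was far from the other 3 of its strain, at 33.1 to 55.4 in mean chi-square over genes, where all other replicate pairs gave 3.43 to 9.13. Genes that a/alpha diploids repress were summed by level per length, in TPM (the authors' length-scaled transcript level). The sum was 61.0 to 68.0 TPM in the WT libraries, 48.6 to 63.5 in atg1 and 40.2 to 43.8 in atg41, below all WT libraries. No haploid library was there to compare, so whether these sums are low was not tested. ZRT1, the zinc transporter gene that low zinc switches on, was lower in atg41 than in WT by 0.81 ± 0.06 on the log2 scale (SE, edgeR adjusted p = 3.30e-08), while its activator ZAP1 was at 0.03 ± 0.07 (0.742). The part of this ZRT1 difference in the values of the 10 genes was not tested.

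In zinc-deficient WT the mean level per length of the highest of the 10 genes was 510 times that of the lowest. AHP1 (YLR109W, chromosome XII, 368781 to 369311), a peroxiredoxin that acts on alkyl peroxides, was far above the rest at 9284 ± 302 TPM (SD, n = 4) and ranked 11 among all 6660 features. It made up 81.2% to 82.4% of the summed TPM of the 10 genes in the WT libraries. TRX2 (YGR209C, chromosome VII, 912913 to 913227), a cytosolic thioredoxin, followed at 682 ± 19.5 TPM. The next were SOD1 (412 ± 16.7 TPM), TRR1 (352 ± 9.70 TPM), SOD2 (225 ± 7.82 TPM) and CCS1 (194 ± 8.15 TPM). YAP1, a transcription factor gene, was at 85.7 ± 4.43 TPM. The catalase gene CTT1 was at 46.8 ± 2.92 TPM. TSA2 (20.1 ± 0.873 TPM) and the other catalase gene, CTA1 (18.2 ± 1.44 TPM), were the lowest, and of the neighbours in this order only these overlapped in range over the WT libraries. TSA2 and CTA1 ranked 4870 and 5045 among the features.

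**Figure D1:**
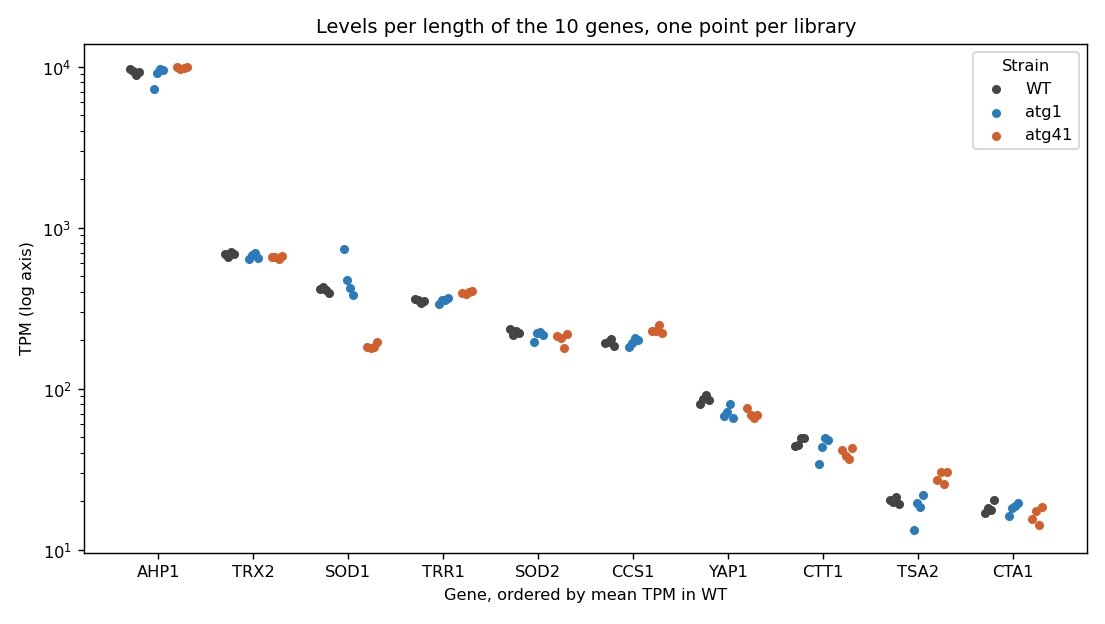
Level per length (TPM, log axis) of the 10 genes in each of the 12 libraries, ordered by the mean in WT, with 1 point per library and a colour per strain. AHP1 lies above all others in every strain, and SOD1 is the gene whose atg41 points leave the WT points furthest, at 180 to 196 TPM against 390 to 430 TPM.

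Loss of ATG41 went with a 2.23-fold fall of SOD1 and with smaller changes in 6 other genes. Of the 10 genes, 3 rose (CCS1, TSA2 and TRR1), 4 fell (SOD1, SOD2, CTT1 and YAP1) and 3 did not pass the test (CTA1, AHP1 and TRX2). In this comparison 65.9% of all genes tested passed, 29.9% higher and 35.9% lower, so 7 of 10 is close to the share among all genes. The 4 libraries of atg41 and the 4 of WT did not overlap for the same 7 genes, against 65.3% of all genes tested. The median size of the log2 difference was 0.20 over the 10 genes and 0.33 over all genes. With libraries scaled to equal totals the split was 2 higher and 6 lower, and the share of higher calls among all genes was 30.8% against 45.5%, as that scaling moved the median of all genes to -0.17.

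**Figure D2:**
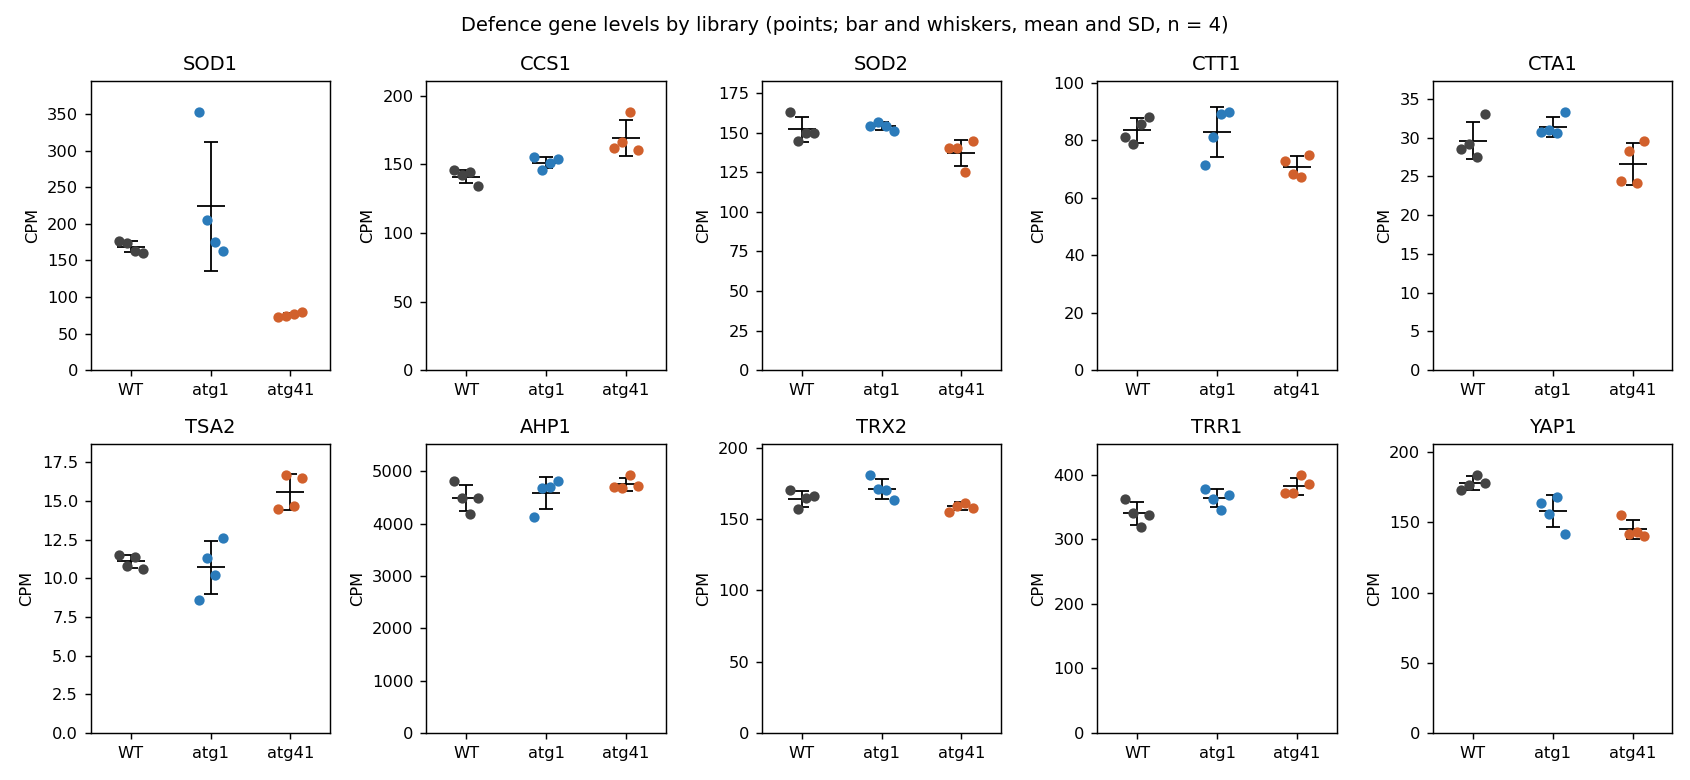
CPM of each of the 10 genes in the 12 libraries, 1 panel per gene with its own axis from 0, points for libraries and a bar with whiskers for the mean and SD of 4. The atg41 points of SOD1 lie at 72.5 to 79.0 CPM, below all 8 other libraries, and atg1 replicate 1 lies at 353 CPM, above all others.

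SOD1 (YJR104C, chromosome X, 622550 to 623014, minus strand), the copper and zinc dismutase, had 176, 174, 163 and 160 CPM (counts scaled for library size with TMM factors) in the WT libraries. In the atg41 libraries it had 72.5, 74.0, 77.1 and 79.0 CPM, all below the lowest WT value by a wide gap. It fell by 1.16 ± 0.20 on the log2 scale (SE), which is 2.23-fold (edgeR adjusted p = 3.75e-04). A fall at least as large was found in 4.71% of the genes tested. As these were bulk cultures, fewer cells with the transcript and less of it per cell cannot be told apart. The fit shares its spread with atg1, where SOD1 ranged from 163 to 353 CPM, and without atg1 replicate 1 the SE was 0.06 and the adjusted p 2.52e-11. The call held in all 19 alternatives, with log2 differences from -1.29 to -1.12.

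CCS1 (YMR038C, chromosome XIII, 347511 to 348260, minus strand) encodes the chaperone that loads copper into Sod1, and it moved the other way. It had 146, 142, 144 and 134 CPM in WT and 162, 166, 188 and 160 CPM in atg41, with no overlap. It rose by 0.26 ± 0.06 (edgeR adjusted p = 9.29e-04), and the call held in all 19 alternatives. Over these edgeR and DESeq2 fits the log2 difference ranged from 0.12 to 0.29, and the highest adjusted p was 0.0471, close to the threshold. SOD2 (YHR008C, chromosome VIII, 122889 to 123590, minus strand), the manganese dismutase of mitochondria, had 163, 145, 150 and 150 CPM in WT and 140, 140, 125 and 145 CPM in atg41. These values lay close together, the lowest WT library and the highest atg41 library both rounding to 145 CPM. SOD2 fell by 0.14 ± 0.05 (edgeR adjusted p = 0.0282), and the call was lost without WT replicate 1 (0.0702) or atg41 replicate 3 (0.0855), in a fit of the 2 strains alone (0.0616), with DESeq2 size factors (0.0879) and in DESeq2 (0.0990).

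Both catalase genes were at or below their WT level in atg41. CTT1 (YGR088W, chromosome VII, 654634 to 656322, plus strand), the cytosolic catalase, had 81.0, 78.8, 85.7 and 88.0 CPM in WT and 72.6, 68.4, 67.3 and 75.0 CPM in atg41. All atg41 values were below all WT values, and the fall was 0.24 ± 0.07 (edgeR adjusted p = 0.00955, called in all 19 alternatives). CTA1 (YDR256C, chromosome IV, 968133 to 969680, minus strand), the catalase of peroxisomes, had 28.5, 29.2, 27.5 and 33.0 CPM in WT and 24.4, 28.3, 24.2 and 29.5 CPM in atg41. The strains overlapped, and the difference of -0.15 ± 0.08 did not pass (edgeR adjusted p = 0.110). It passed with libraries scaled to equal totals (0.0128), with the trend of counts with base composition and gene length removed (0.0241) and without atg41 replicate 4 (0.0473).

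Of the peroxiredoxin genes, the scarce TSA2 rose and the abundant AHP1 did not pass. TSA2 (YDR453C, chromosome IV, 1365072 to 1365662, minus strand) encodes a cytosolic peroxiredoxin and paralog of Tsa1. It had 11.5, 10.8, 11.4 and 10.6 CPM in WT and 14.5, 16.7, 14.7 and 16.5 CPM in atg41. The groups did not overlap, and the rise was 0.50 ± 0.11, or 1.41-fold (edgeR adjusted p = 0.00125, called in all 19 alternatives). AHP1 had 4808, 4482, 4180 and 4488 CPM in WT and 4693, 4674, 4936 and 4713 CPM in atg41. Its groups overlapped, with a difference of 0.08 ± 0.06 (edgeR adjusted p = 0.270). TSA1, the major cytosolic peroxiredoxin gene and the paralog of TSA2, rose from 2681 ± 106 to 4848 ± 49.6 CPM (0.85 ± 0.06, edgeR adjusted p = 1.31e-08). TSA1 and TSA2 are similar in sequence, so reads could be split between them by the authors' counting. With TSA1 at 235 to 248 times the level per length of TSA2 in WT, the TSA2 values are uncertain. Of the 120 expected counts of the genes followed here, TSA2 among them, 2 were not whole, against 18.4% of all expected counts. Whether reads were split between TSA1 and TSA2 was not tested.

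In the thioredoxin system the reductase gene rose slightly and the thioredoxin gene did not pass. TRR1 (YDR353W, chromosome IV, 1183299 to 1184258, plus strand), cytosolic thioredoxin reductase, had 362, 340, 319 and 337 CPM in WT and 372, 372, 400 and 385 CPM in atg41. The atg41 values were all higher, by 0.17 ± 0.05 (edgeR adjusted p = 0.0132). The call was lost at equal totals (0.476), after removal of the composition and length trend (0.0886) and without WT replicate 3 (0.0575). TRX2 had 170, 157, 165 and 166 CPM in WT and 155, 159, 161 and 158 CPM in atg41, overlapping groups with a difference of -0.05 ± 0.05 (edgeR adjusted p = 0.325). It passed, as lower, at equal totals (0.00152), and its sign turned with the composition and length trend removed. Its paralog TRX1 fell by 0.34 ± 0.06 (1.65e-04), and TRR2, the mitochondrial reductase, was at 0.03 ± 0.08 (0.724).

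YAP1 (YML007W, chromosome XIII, 253848 to 255800, plus strand), the regulator, had 173, 177, 184 and 178 CPM in WT and 155, 142, 143 and 140 CPM in atg41. The atg41 libraries were all lower, and YAP1 fell by 0.30 ± 0.06, or 1.23-fold (edgeR adjusted p = 3.58e-04, called in all 19 alternatives). The 8 genes whose windows hold a Yap1 motif of either form were 3 that rose, 2 that fell and 3 that did not pass, beside 29.9% and 35.9% of all genes called higher and lower. A transcript level of YAP1 does not measure Yap1 activity, which depends on where the protein is in the cell.

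**Figure D3:**
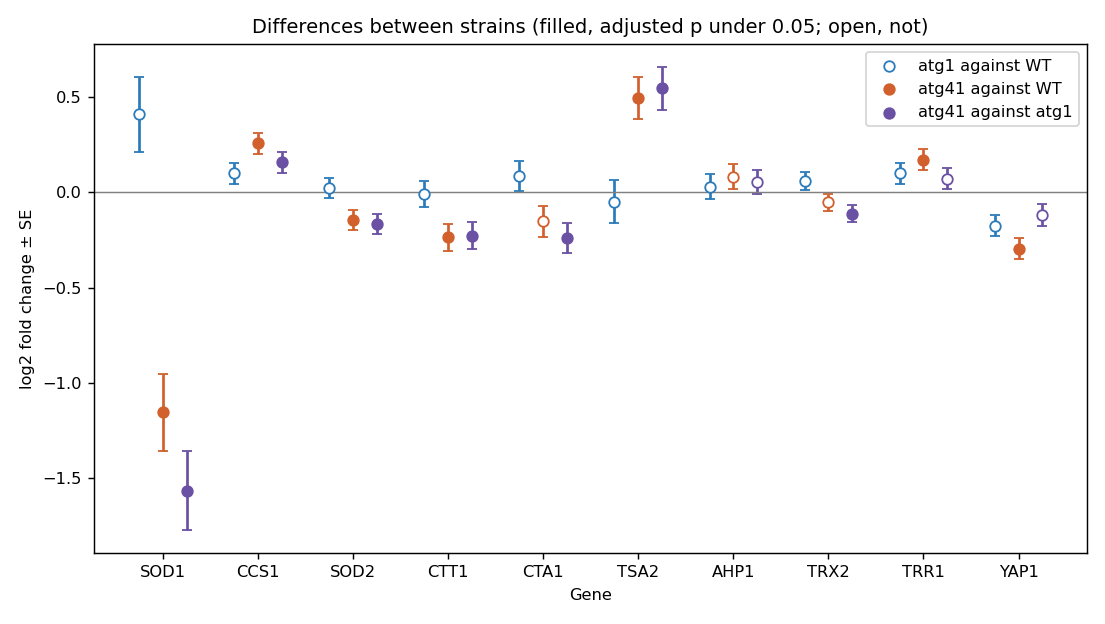
Log2 fold changes ± SE of the 10 genes in the 3 comparisons of strains, with filled points for an adjusted p under 0.05 and open points for the rest. SOD1 against WT is at -1.16 in atg41 and at an open 0.41 in atg1, and TSA2 has the largest rise in atg41 at 0.50.

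In atg1 none of the 10 genes passed the test against WT (edgeR quasi-likelihood), where 3.73% of all genes tested did, so the count is near that share. One of the 10, YAP1, had an unadjusted p under 0.05, as did 21.2% of all genes, and DESeq2 also called 0 of the 10. YAP1 had 164, 156, 168 and 142 CPM in atg1, all below the 173 to 184 CPM of WT. The difference was -0.18 ± 0.06 (edgeR adjusted p = 0.102), and it passed at equal totals (0.0369) and when atg1 replicate 3 was left out (0.0385). CCS1, at 155, 146, 151 and 154 CPM in atg1, also did not overlap with WT, at 0.10 ± 0.06 (0.314). Groups that do not overlap were found for 13.8% of all genes tested. The differences of the 7 genes other than SOD1, YAP1 and CCS1 lay between -0.05 and 0.10.

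SOD1 in atg1 varied widely between libraries. It had 353, 205, 175 and 163 CPM in the atg1 replicates, against 160 to 176 CPM in WT. Replicate 1 was 2.10 times the WT mean, replicate 2 was also above all WT libraries, and the other 2 were within their range. The difference from WT was 0.41 ± 0.20 (edgeR adjusted p = 0.260) and was 0.10 without replicate 1. In the same library TSA2 (8.58 CPM against 10.2 to 12.6), CTT1 (71.2 against 81.2 to 89.8) and AHP1 (4128 against 4675 to 4823) were the lowest of their group. This is the library that stood apart over all genes, and what part that has in these values was not tested.

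Both comparisons above share the WT libraries. The atg41 and atg1 strains were also compared directly, which tests whether the deletions differ in their effect. Of the 10 genes 2 were higher in atg41 (CCS1 and TSA2), 5 were lower (SOD1, SOD2, CTT1, CTA1 and TRX2) and 3 did not pass, where 63.9% of all genes passed, 31.0% higher and 33.0% lower. SOD1 was lower by 1.57 ± 0.21 (edgeR adjusted p = 3.85e-05), and by 1.26 without atg1 replicate 1. TSA2 was higher by 0.54 ± 0.11 (6.68e-04). CTT1 (-0.23 ± 0.07, 0.0126) and SOD2 (-0.16 ± 0.05, 0.0145) kept the call in all 19 alternatives. CTA1 (-0.24 ± 0.08, 0.0178) lost it without atg1 replicate 4 (0.0506), atg41 replicate 1 (0.0600) or atg41 replicate 3 (0.0567). CCS1 (0.16 ± 0.06, 0.0218) lost it at equal totals (0.0876), in a fit of the 2 strains alone (0.0512) and without atg1 replicate 2 (0.0658) or atg41 replicate 3 (0.0685). TRX2 (-0.11 ± 0.05, 0.0457) kept it in 6 of 19, and with the trend of composition and length taken out its sign turned, at 0.0059 (0.920). YAP1 was at -0.12 ± 0.06 (0.0770), TRR1 at 0.07 ± 0.05 (0.265) and AHP1 at 0.05 ± 0.06 (0.482). YAP1 passed at equal totals (0.0361), after removal of the composition and length trend (0.0333) and without atg1 replicate 4 (0.0140) or atg41 replicate 1 (0.0410).

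Ratios within a library show how unequal the changes were, whatever the scaling. The level per length of SOD1 over that of its chaperone CCS1 was 2.02 to 2.19 in the WT libraries and 0.730 to 0.880 in atg41, so the order of the 2 transcripts was turned. In atg1 the ratio was 4.06 in replicate 1 and 1.89 to 2.50 in the other 3. SOD1 over SOD2 was 1.76 to 1.99 in WT and 0.854 to 1.01 in atg41, near even. TSA1 over TSA2 was 235 to 248 in WT, 293 to 329 in atg41 and 229 to 367 in atg1. TRX2 over TRX1 was 0.920 to 0.996 in WT and 1.11 to 1.20 in atg41, with no overlap. The catalase ratio, CTT1 over CTA1, overlapped between WT (2.43 to 2.84) and atg41 (2.20 to 2.71). The summed TPM of the 10 genes overlapped, at 10967 to 11683 in WT and 11466 to 11775 in atg41. With AHP1 left out it was 2002 to 2066 in WT and 1793 to 1867 in atg41, and the mean of SOD1 alone went from 412 to 185 TPM.

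**Figure D4:**
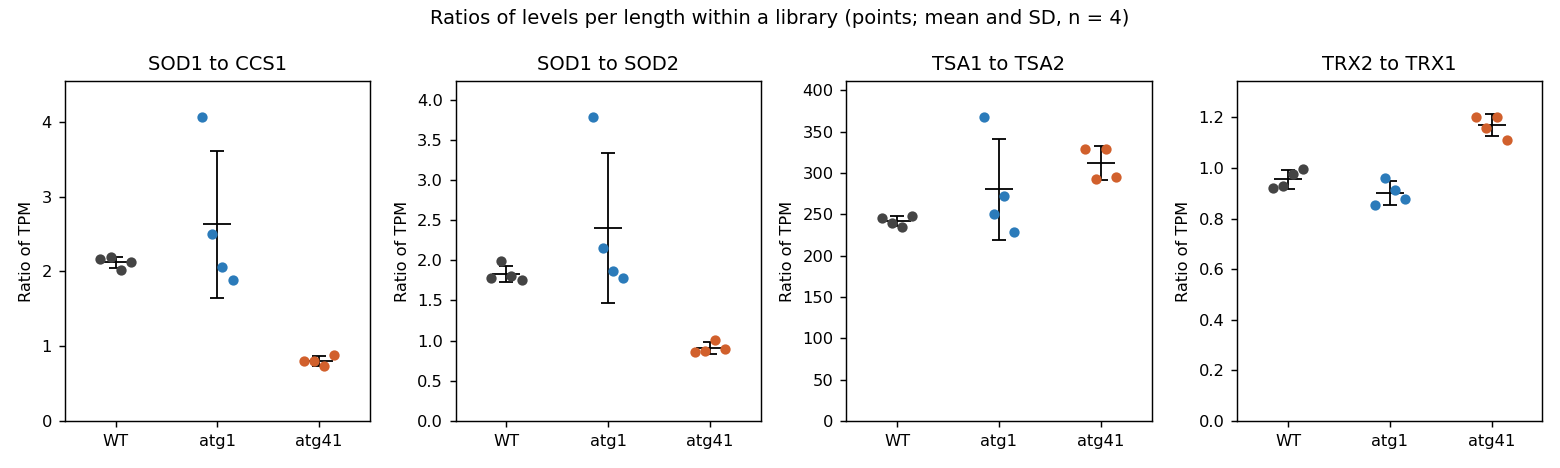
Ratios of level per length (TPM) within each library for SOD1 to CCS1, SOD1 to SOD2, TSA1 to TSA2 and TRX2 to TRX1, with points for libraries and the mean and SD of 4, each axis starting at 0. SOD1 to CCS1 drops from 2.12 ± 0.0738 in WT to 0.800 ± 0.0619 in atg41.

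Copper genes of the list named metal supply to the dismutases fell more often than they rose in atg41, and its manganese genes were split. The division by metal was not among the planned results. The list also holds genes that bind copper or move it elsewhere, such as CUP1-1, CUP1-2, ATX1 and CCC2. Its counts therefore do not measure the supply of copper to Sod1. Of the 14 genes 3 rose and 8 fell, with a median log2 difference of -0.31 against -0.04 for all genes tested. Among all genes tested 29.9% were called higher and 35.9% lower. This list and those below were put together with earlier results of these data known. Their counts and medians beside all genes are therefore descriptions and do not test an excess. Of the 10 copper genes 1 rose and 6 fell, or 5 of 9 with the CUP1 copies counted once. Of the 4 manganese genes, chosen for naming after their values were seen, the manganese transporter SMF1 (0.53 ± 0.05) and the Golgi calcium and manganese pump PMR1 (0.32 ± 0.07) rose. The other manganese transporter gene, SMF2 (-0.32 ± 0.06), and MTM1, a mitochondrial carrier needed for active Sod2 (-0.31 ± 0.05), fell. CTR1, the high-affinity copper importer, fell by 1.44 ± 0.05 (edgeR adjusted p = 1.46e-11), from 475 to 499 CPM in WT to 171 to 186 CPM in atg41. The copper-binding metallothionein genes CUP1-1 and CUP1-2 are near-identical copies with the same expected counts in every library, so neither can be read alone, and each fell by 1.63 ± 0.19 (4.27e-06). Of further members, chosen after their values were seen, ATX1, which carries copper to the secretory pathway, fell by 1.22 ± 0.09, and CCC2, the copper pump that Atx1 feeds, by 0.66 ± 0.06. MAC1, the activator of copper uptake genes, fell by 0.34 ± 0.08, while CUP2, which activates CUP1 and SOD1 when copper is ample, rose by 0.87 ± 0.09.

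Other peroxidases rose more often than they fell in atg41, in a list also put together with earlier results of these data known. Of 8 genes 6 rose and 1 fell, with a median of 0.39, and at equal totals 4 rose and 1 fell. The shares over all genes tested were 29.9% higher and 35.9% lower, with a median of -0.04. CCP1, the cytochrome c peroxidase of mitochondria, rose by 1.52 ± 0.08 (edgeR adjusted p = 1.40e-09), and TSA1 was next among the rises. GPX2, a peroxidase of the glutathione peroxidase family, fell by 0.63 ± 0.19 (0.00948), a call that removal of the composition and length trend ended (0.0962).

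Among 14 other thioredoxins, glutaredoxins and glutathione enzymes 6 rose and 4 fell, where 65.9% of all genes were called, with a median of 0.08 that turned to -0.05 at equal totals. GRX8, a glutaredoxin gene, rose by 3.02 ± 0.13 (edgeR adjusted p = 2.07e-10), from 10.8 to 17.6 CPM in WT to 98.2 to 131 CPM in atg41. GSH1, which makes the first step of glutathione synthesis, rose by 1.81 ± 0.05, and GRX3, a glutaredoxin of iron regulation, by 1.22 ± 0.07. The 4 falls, listed here after their values were seen, were GRX2 (-1.04 ± 0.06), TRX3 (-1.01 ± 0.13), GRX4 (-0.80 ± 0.14) and TRX1 (-0.34 ± 0.06). Of 7 genes for enzymes that take electrons from thioredoxin 3 rose and 1 fell, with a median of 0.18 against -0.04 for all genes tested. Of all genes tested 29.9% were called higher and 35.9% lower. MET16, the reductase of activated sulfate, rose by 2.65 ± 0.09 (6.99e-12), from 21.5 to 25.7 CPM to 143 to 154 CPM, while RNR1, the large subunit of ribonucleotide reductase, fell by 0.84 ± 0.10 and RNR3, its minor form, rose by 0.75 ± 0.09. TRX2 and TRR1, which feed these enzymes, were at -0.05 and 0.17.

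Further Yap1 targets and partners rose in 9 of 14 and fell in 3, with a median of 0.35, although YAP1 itself fell. Among all genes tested 29.9% were called higher and 35.9% lower, with a median of -0.04. TSA1, GLR1, GSH1, SRX1 and GPX2 of this list were already counted in the peroxidase or glutathione lists, so the lists are not independent. This list too was put together with earlier results of these data known. GSH1, TSA1 and OYE3, an NADPH dehydrogenase (1.50 ± 0.11), rose most. At equal totals 7 rose and 3 fell. Among 13 genes of NADPH supply 6 rose and 4 fell, beside 65.9% of all genes called, and the split was 4 and 6 at equal totals. ZWF1, the first enzyme of the pentose phosphate pathway, rose by 1.04 ± 0.07, whereas GND1, the enzyme of the other NADPH-making step there, fell by 1.81 ± 0.07 and ALD6, the cytosolic aldehyde dehydrogenase, by 1.86 ± 0.08 (edgeR adjusted p at most 1.34e-08 for the 3).

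The lists closest to the catalases were mixed in atg41, where 29.9% of all genes tested were called higher than in WT and 35.9% lower. The median log2 difference of all genes tested was -0.04. Of 13 genes of the Msn2 and Msn4 stress response, to which CTT1 belongs, 3 rose and 4 fell in atg41, with a median of 0.11, and 6 rose and 4 fell in a fit of the 2 strains alone. The 3 largest called changes were falls, with SPI1, a cell wall protein, at -1.12 ± 0.08, HSP26, a small heat shock protein, at -0.82 ± 0.26 and the activator MSN4 at -0.78 ± 0.07. The largest of the 3 rises, PNC1, named after its values were seen, was close in size at 0.71 ± 0.06. Of 12 genes of peroxisomal fatty acid oxidation, whose peroxide Cta1 breaks down, 5 rose and 1 fell, with PXA1, part of the fatty acid importer, at 0.73 ± 0.08, POX1, the oxidase that makes the peroxide, at 0.67 ± 0.13 and PEX11, a peroxisome division factor, at -0.61 ± 0.07. At equal totals this split was 4 and 3. In atg1 against WT none of the 90 genes of these 8 lists passed in edgeR, where 3.73% of all genes tested did. An unadjusted p under 0.05 was found for 10 of the 90, against 21.2% of all genes tested, and DESeq2 called 1.

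**Figure D5:**
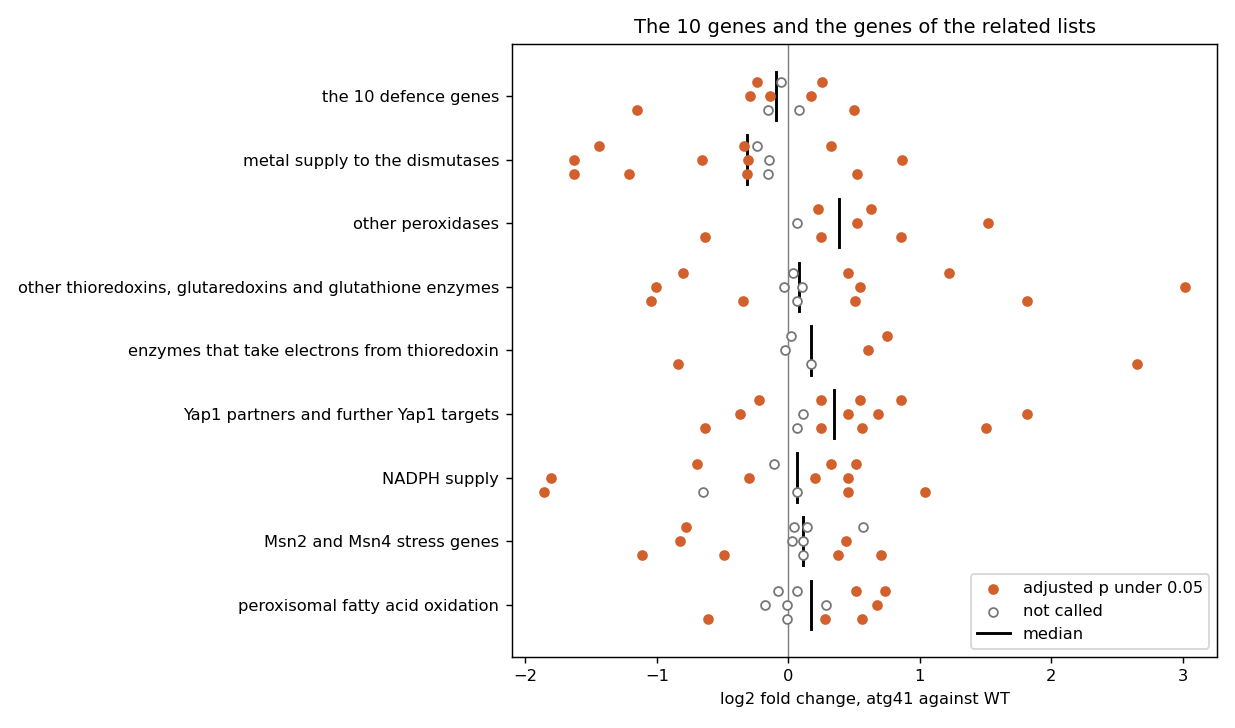
Log2 fold changes of atg41 against WT for the 10 genes and for each of the 8 related lists, with 1 point per gene (filled for an adjusted p under 0.05, spread vertically for legibility) and a bar at the median. The metal supply list has its median at -0.31 and the other peroxidases at 0.39, and the 10 genes lie between -1.16 and 0.50.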

How the data were processed

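Poly-A RNA from 1 µg of total RNA of each culture was made into unstranded TruSeq libraries and sequenced in single reads, per the labels. The authors deposited expected counts per gene, TPM and FPKM. BWA, STAR, RSEM and edgeR are named, with no role, per the submitters' processing notes; versions, build and annotation: not given in the sources used here. No header states the count unit. It was read from the values, of which 18.4% were not whole, and counts were rounded. Another 12 per-sample columns, whose names fit no sample of the labels, were left out. The authors' comparison tables were not used here.

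Genes passing filterByExpr (minimum count 10, minimum total 15) were scaled with TMM factors and tested with the edgeR 4.0.16 quasi-likelihood F test (R 4.3.3, robust, strain as the only factor, 12 libraries in 1 fit, two-sided). P-values were adjusted by Benjamini-Hochberg over all 6195 genes, threshold 0.05. The SE is the log2 fold change divided by the square root of F. CPM uses the TMM-scaled totals, and the deposited TPM served for levels per length. Because the kit does not mark strand, antisense reads cannot be told apart; no RefSeq gene overlaps the 10.

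Alternatives were DESeq2 1.42.0, DESeq2 size factors, equal totals, no filter, 2 strains alone, a replicate block and leaving out each library. Taking out, per library, the trend of counts over base composition and gene length (natural splines) was added after seeing the data. The 10 genes and the lists were chosen with earlier results of these data known. Named were the 10 genes, ATG1, ATG41, ZRT1, ZAP1, the paralogs TSA1, TRX1 and TRR2, and up to 3 called genes with the largest change per list; others are marked.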

Additional observations from a re-analysis of the deposited data

Results flagged for a closer look

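In 4 of 108 groups of 4 libraries, over the 36 genes named by the rule, a library lay further from the other 3 than Dixon's 95% critical value allows, and chance flags about 1 in 20 groups. CTA1 was at 33.3 CPM in atg1 replicate 4, with 30.6 to 31.0 in the others. AHP1 was at 4936 CPM in atg41 replicate 3, with 4674 to 4713 in the others. YAP1 was at 155 CPM in atg41 replicate 1, with 140 to 143 in the others, and TRX1 was at 182 CPM in WT replicate 1, with 164 to 167 in the others. SOD1 in atg1 replicate 1 did not reach the value, with a gap of 0.781 of the range.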

How the results depend on the processing

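Of 190 single-gene results in each comparison (10 genes under 19 alternatives), 176 in atg1 against WT, 176 in atg41 against WT and 165 in atg41 against atg1 kept their direction and their side of the threshold. In atg41 against WT 8 lost the call and 4 gained it, and in atg41 against atg1 19 lost it and 4 gained it. The sign turned in 12, 2 and 2 results of the 3 comparisons, of which only TRX2 in atg41 against atg1 had been called. At equal totals these were, in atg1 against WT, SOD2 (-0.0595), AHP1 (-0.0481) and TRX2 (-0.0236), and AHP1 in atg41 against WT (-0.0532) and in atg41 against atg1 (-0.0051). With the composition and length trend removed they were SOD2 (-0.0386) and AHP1 (-0.0097) in atg1 against WT, and TRX2 in atg41 against WT (0.0697) and against atg1 (0.0059). CTT1 in atg1 turned to 0.0110 with DESeq2 size factors and 0.0117 in DESeq2. Leaving out each library, the differences of atg1 from WT ranged from -0.0111 to 0.0473 for SOD2, -0.0593 to 0.0566 for CTT1, -0.1404 to 0.0403 for TSA2 and -0.0129 to 0.0766 for AHP1. The causes were not tested.

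In atg1 against WT, 0 of the 10 genes were called, and 1 at equal totals and 0 to 1 with each library left out, the 1 being YAP1. Of the 90 list genes 0 were called, and 1 at equal totals, 1 in DESeq2 and 0 to 4 with each library left out (4 without atg1 replicate 3, 1 without atg41 replicate 3). Over all genes 231 were called, and 378 at equal totals, 379 in DESeq2, 69 with the 2 strains alone and 153 with the trend removed. Leaving out a library gave 53 to 457, where dropping WT replicate 3 left 53, atg1 replicate 2 also 53, WT replicate 2 left 77, atg1 replicate 4 left 109, WT replicate 4 left 130, and dropping atg1 replicate 3 gave 457. The share of higher calls was 10.4% in edgeR, 33.5% in DESeq2 and 22.9% with the trend removed. In the comparisons of atg41 with WT and with atg1, the total calls over the 10 genes, the 90 list genes and all genes each moved by at most 1.5 times. Splits by direction moved more: of the 10 genes 2 rose in atg41 against atg1, but 1 at equal totals and with the 2 strains alone, and in atg41 against WT the falls among Yap1 partners and targets went from 3 to 1 with the trend removed. By level, the order of the 10 genes in WT was the same by FPKM and without each WT replicate.

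The labels share replicate numbers across strains. Same-numbered libraries had correlations of -0.166 to 0.164 in their deviations from the strain means, with 2 of 12 pairs over 0.1. Of the 12 libraries 3 correlated best with their own number. These values showed no general shift shared by number, and they cannot tell whether same-numbered libraries were grown or prepared together. With the replicate block 209, 4000 and 3864 genes were called in atg1 against WT, atg41 against WT and atg41 against atg1, against 231, 4081 and 3961 without it, and TRX2 in atg41 against atg1 was then at an adjusted p of 0.0760. Depth limits TSA2 and CTA1 most, the lowest of the 10 genes.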
